A study of Mus musculus with 16 samples.

Results

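The 5 mouse microRNAs (miRNAs) described here, mmu-miR-2861, mmu-miR-3960, mmu-miR-335-5p, mmu-miR-210-3p and mmu-miR-690 (written below without the prefix), have each been reported to promote the differentiation of osteoblasts, the cells that form bone. They were taken by name from a table of 1915 mature mouse miRNAs, in which all 5 have an entry. The libraries were made from extracellular vesicles (EVs) of bone marrow plasma from C57BL/6N mice aged 6 months. In the first group, called Ocn, the CAGS-Snorkel reporter was crossed to Ocn-Cre, which uses the promoter of osteocalcin, a gene of mature osteoblasts and osteocytes (6 libraries, from 3 male and 3 female mice by the study's design). In the second group, called Prx1, the same reporter was crossed to Prx1-Cre, active in early limb mesenchyme and its descendants (10 libraries, from 5 male and 5 female mice). All mice thus carried the reporter, whose HA tag was used to capture the EVs with antibody-coated magnetic beads. Libraries from mice without Cre or from uncaptured plasma were not analysed here, and the background of the capture is therefore unknown.

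miRNAs are short RNAs that pair with messenger RNAs, mainly through bases 2 to 8 of the miRNA (the seed), and lower their translation and stability. Those that favour osteoblast formation are thought to do so by repressing proteins that hold the osteoblast programme back. In mouse osteoblasts, miR-2861 represses the histone deacetylase Hdac5 and miR-3960 represses the homeobox factor Hoxa2, both of which restrain Runx2, the master transcription factor of the lineage. miR-335-5p represses Dkk1, a secreted inhibitor of Wnt signalling, in mouse bone-forming cells. miR-210-3p is induced by low oxygen through hypoxia-inducible factors and represses the activin receptor Acvr1b in mouse stromal cells. miR-690 has been reported to act through NF-kappaB in mouse myoblasts given a bone morphogenetic protein.

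The mature sequences below show how unlike these miRNAs are, with the seed in capitals. They are from RefSeq (GRCm38.p6), which held a mature sequence for 4 of the 5 members.
miR-2861: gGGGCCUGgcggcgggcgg
miR-335-5p: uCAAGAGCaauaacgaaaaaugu
miR-210-3p: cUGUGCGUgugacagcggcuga
miR-690: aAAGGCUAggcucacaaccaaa
No seed was shared among these 4. Other entries sharing a seed with any of them were sought among the 1623 entries of the table with a RefSeq mature sequence. Entries of a single chromosome, which carries none of these members, were left out of that search. The only entry found was miR-3091-3p, which shares the seed of miR-2861 and had 0 counts. GC content ran from 30.4% in miR-335-5p through 45.5% in miR-690 and 63.6% in miR-210-3p to 94.7% in miR-2861.

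The hairpin genes are spread over 4 chromosomes (GRCm38). Mir2861 (chr2:32712807-32712888) and Mir3960 (chr2:32712900-32712972) are neighbours on the minus strand, 11 bases apart, and both lie in an exon of Cdk9, a kinase gene on the same strand. Mir335 (chr6:30741299-30741396, plus strand) lies in an intron of Mest, an imprinted gene expressed in mesoderm. Mir690 (chr16:28599935-28600043, minus strand) lies in an intron of Fgf12. Mir210 (chr7:141221384-141221493, minus strand) overlaps no other gene of GENCODE M21.

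The 5 miRNAs were scarce in both groups. Together they had 537 counts in the 16 libraries, or 55.6 CPM (counts per 1000000) of the summed totals. miR-210-3p and miR-335-5p were found in every library at 2.73 to 37.3 CPM of the library total, miR-690 was found in 14 libraries, miR-3960 in 2, and miR-2861 in none. Of the 3 regularly detected members, all had a higher mean in Ocn than in Prx1, by 1.46-fold for miR-210-3p, 1.36-fold for miR-335-5p and 2.06-fold for miR-690. None of these differences passed the test after adjustment over the table. The edgeR fit that tested miR-210-3p and miR-335-5p called 13.7% of the 234 entries above its low-count filter. miR-690 was below that filter, and the fit without it called 2.77% of 973 entries. The median log2 fold change, Ocn over Prx1, was 0.01 over the 234 entries and 0.08 over the 973. By mean CPM over the 16 libraries, miR-210-3p ranked 223, miR-335-5p 232 and miR-690 266 among the 1915 entries, and their ranges overlapped one another in both groups, so their order is not resolved.

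Depth bears on all of these values. Library totals ran from 582660 to 1536421 in Ocn and from 225273 to 813770 in Prx1, and log10 totals differed between the groups (exact 2-sided permutation test, p = 0.00112). The level that a count of 0 still allows, taken as 3 counts of the total, was therefore 1.95 to 5.15 CPM in Ocn and 3.69 to 13.3 CPM in Prx1. With the log10 total as a further term, the filtered edgeR fit called 0 of 234 entries, which limits every call from that fit given below. Summed over the 5 members, the lowest, median and highest library had 38.7, 68.5 and 86.6 CPM in Ocn, and 19.1, 41.6 and 71.0 CPM in Prx1. The miRNAs of the marker lists for blood, mesenchymal, muscle and endothelial cells were far more abundant. Summed CPM of 3 myeloid and pan-leukocyte miRNAs was 39067 to 94359 in Ocn and 42090 to 68987 in Prx1, that of 5 erythroid ones was 23947 to 43670 in Ocn and 31874 to 47291 in Prx1, and that of 5 mesenchymal ones was 31426 to 43032 in Ocn and 26518 to 34989 in Prx1. Lists of 4 muscle and 2 endothelial miRNAs reached 46726 to 77413 and 16712 to 20837 CPM in Ocn, and 39885 to 70774 and 12913 to 19289 CPM in Prx1. In bulk EVs, fewer vesicles from a cell type and less of a miRNA per vesicle cannot be told apart.

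miR-2861, the repressor of Hdac5, was not detected. It had 0 of 5603863 counts in the 6 Ocn libraries together and 0 of 4059507 counts in the 10 Prx1 libraries together, which allows a level of up to 0.535 CPM in Ocn and 0.739 CPM in Prx1. Its genomic neighbour miR-3960, the repressor of Hoxa2, had 1 count in Ocn 3 and 0 in the other 5 Ocn libraries, and 2 counts in Prx1 8 and 0 in the other 9 Prx1 libraries. Pooled over each group this was 0.178 CPM in Ocn (95% exact binomial interval 0.0045 to 0.994) and 0.493 CPM in Prx1 (0.0597 to 1.78). Both levels are at or under the limit that a count of 0 allows, so no fold change is given. These intervals and floors cover counting error only.

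Entries of high GC content were detected less widely in this table, which is shown because the pair from chromosome 2 is GC-rich. The share with a count in any library was 56.2% of 226 entries under 40% GC, 57.6% of 401 at 40% to under 50%, 50.7% of 576 at 50% to under 60% and 40.4% of 339 at 60% to under 70%. Of the 19 entries with a mature GC content of at least 80%, 5 had a count, or 26.3%. None of those 19 passed the low-count filter. The 19 include miR-2861. The most abundant of the others, miR-5126, had 16 counts in 8 libraries and was named after its values were seen. Whether GC content as such lowers capture, ligation or mapping of these miRNAs was not tested.

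**Figure D1:**
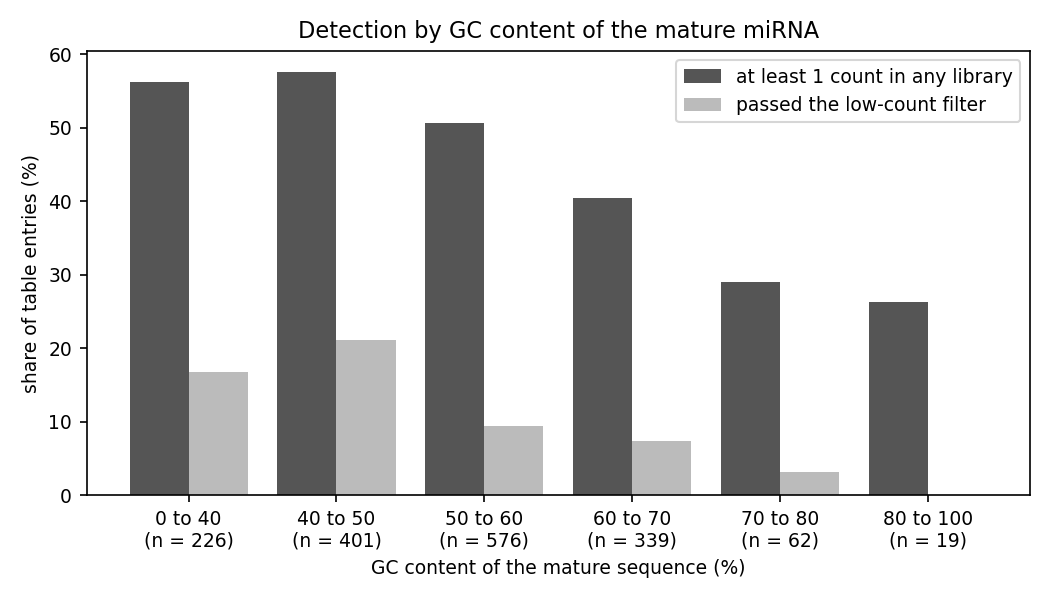
Share of table entries (%, vertical axis) with at least 1 count in any of the 16 libraries (dark bars) and share that passed the low-count filter (light bars), by GC content of the mature sequence (horizontal axis, with the number of entries). The share with a count was 57.6% at 40% to under 50% GC and 26.3% at 80% GC or more, where no entry passed the filter.

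The hairpin of miR-3960, for which no mature sequence was matched, and that of miR-2861, with the mature miRNA in capitals, show this composition. GC made up 82.2% of the first and 73.2% of the second.
Mir3960: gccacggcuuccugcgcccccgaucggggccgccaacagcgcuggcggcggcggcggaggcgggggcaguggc
Mir2861: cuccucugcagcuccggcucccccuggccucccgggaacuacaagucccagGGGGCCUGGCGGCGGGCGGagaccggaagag

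miR-335-5p, the repressor of the Wnt inhibitor Dkk1, was present in all 16 libraries. The 6 Ocn libraries had 10, 15, 15, 33, 42 and 15 counts in the order Ocn 1 to Ocn 6, or a lowest, median and highest level of 13.2, 23.9 and 31.4 CPM. The 10 Prx1 libraries had 1 to 19 counts and a lowest, median and highest level of 2.73, 17.8 and 23.3 CPM. The groups overlapped: Ocn 1 and Ocn 2 lay under the Prx1 median, and Prx1 8 and Prx1 10 lay below every Ocn library. The mean level was 22.7 ± 6.9 CPM in Ocn and 16.7 ± 6.5 CPM in Prx1 (SD, n = 6 and 10).

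This difference was not past the threshold. The log2 fold change of miR-335-5p, Ocn over Prx1, was 0.42 (SE 0.29, 95% interval -0.18 to 1.03), with an edgeR quasi-likelihood adjusted p of 0.353 over the 234 entries that passed the low-count filter. The exact permutation test on log2(CPM + 1) gave a difference of 0.52 (p = 0.184, adjusted p = 0.703 over the 973 entries with a count). Prx1 10, with a single count, lowered the Prx1 mean, and without it the permutation difference was 0.29. The spread between libraries was 2.11 times the Poisson variance in Ocn and 1.14 times in Prx1, where it was close to what counting alone gives. This ratio depends on the number of counts, which was lower in Prx1, so it does not show that the Prx1 libraries were more alike.

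miR-210-3p, the miRNA of low oxygen, had 23, 16, 19, 20, 45 and 13 counts in Ocn 1 to Ocn 6. This corresponds to a lowest, median and highest level of 14.1, 24.2 and 37.3 CPM in Ocn, and the 10 Prx1 libraries, with 1 to 19 counts, had 3.18, 17.8 and 35.5 CPM. Of the Ocn libraries, 5 lay above the Prx1 median. No Prx1 library exceeded the highest Ocn library, and 4 Prx1 libraries lay below the lowest. On average it stood at 25.2 ± 9.1 CPM in Ocn and 17.3 ± 10.2 CPM in Prx1 (SD, n = 6 and 10).

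The log2 fold change of miR-210-3p was 0.50 (SE 0.32, 95% interval -0.16 to 1.16), with an edgeR adjusted p of 0.307. The exact permutation test gave a log2 difference of 0.70 (p = 0.136, adjusted p = 0.609). Neither test passed. The spread between libraries was 2.87 times the Poisson variance in Ocn and 2.05 times in Prx1. Over all miRNAs, 32 of 234 tested entries, or 13.7%, were called at an adjusted p under 0.05, and of the 5 members 2 were tested and 0 were called, nor had either an unadjusted p under 0.05, as 62 of the 234 entries had. miR-210-3p and miR-335-5p were called in neither the DESeq2 nor the limma voom fit of the same entries, which did not test the other members.

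**Figure D2:**
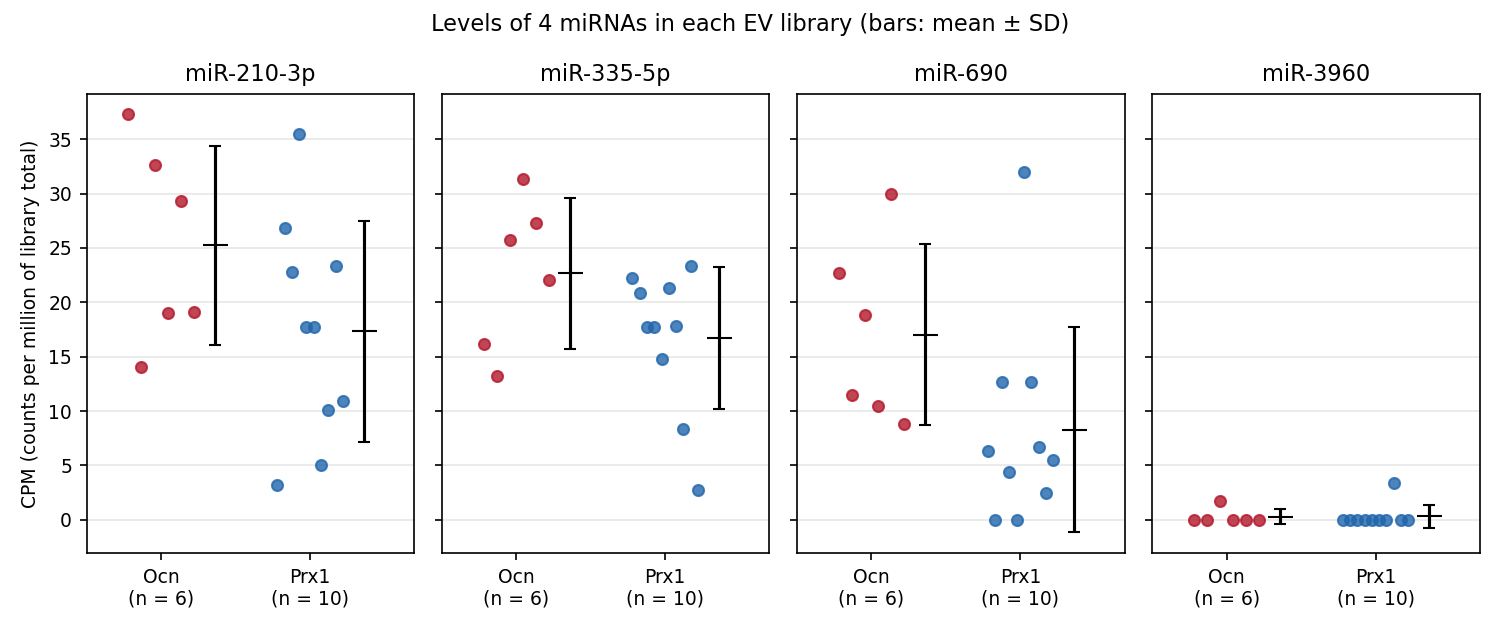
CPM of library total (vertical axis) of miR-210-3p, miR-335-5p, miR-690 and miR-3960 in each of 6 Ocn and 10 Prx1 libraries (points), with the group mean ± SD (bars). The groups overlap for each miRNA, and miR-690 has a single Prx1 library, at 32.0 CPM, above all Ocn libraries.

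miR-690 had the largest difference between the groups among the members. In Ocn 1 to Ocn 6 it had 14, 13, 11, 11, 46 and 6 counts, and its lowest, median and highest level was 8.82, 15.2 and 29.9 CPM. In Prx1 1 to Prx1 10 it had 2, 0, 5, 1, 0, 9, 5, 4, 2 and 2 counts, and its lowest, median and highest level was 0, 5.91 and 32.0 CPM. All 6 Ocn libraries lay above the Prx1 median and 7 of 10 Prx1 libraries lay below every Ocn library, while Prx1 6 had the highest level of all 16. The mean was 17.0 ± 8.3 CPM in Ocn and 8.28 ± 9.43 CPM in Prx1 (SD, n = 6 and 10).

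miR-690 was below the low-count filter, so it had no test in the filtered fit. In the edgeR fit without that filter, its log2 fold change was 1.18 (SE 0.38, 95% interval 0.43 to 1.92, unadjusted p = 0.00201), and its adjusted p of 0.0576 over 973 entries was just short of the threshold. That fit called 2.77% of the 973 entries, and 149 had an unadjusted p under 0.05. By p, miR-690 stood at place 34. A further planned edgeR fit kept entries with at least 10 CPM in at least 6 libraries and called 29 of 293. There the log2 fold change of miR-690 was 1.10 (SE 0.46, 95% interval 0.15 to 2.06). Its edgeR p was 0.0254 and its adjusted p was 0.135, further from the threshold. The exact permutation test on log2(CPM + 1) gave a difference of 1.51 (p = 0.0458, adjusted p = 0.437), and called 1.23% of the entries. A single library decides on which side of the threshold miR-690 falls in the edgeR fit without a low-count filter. Without Prx1 6 its log2 fold change was 1.60 (edgeR adjusted p = 0.00712), and without Ocn 5, the library with 46 counts, it was 0.88 (edgeR adjusted p = 0.303). It also passed without Ocn 4, Ocn 6, Prx1 3 or Prx1 7, with edgeR adjusted p of 0.0367 to 0.0459. With the log10 total as a further term of that fit, the log2 fold change was 1.24 and the adjusted p was 0.275 with edgeR.

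The detection of miR-690 was compared at equal depth as well. It was found in 6 of 6 Ocn libraries and in 8 of 10 Prx1 libraries (2-sided Fisher's exact test, p = 0.5). If each library held the 225273 counts of the shallowest, it would be expected in 5.78 of 6 Ocn and 7.07 of 10 Prx1 libraries, computed from the counts without random draws. For miR-210-3p the expected numbers were 5.96 and 9.45, and for miR-335-5p 5.95 and 9.51. The spread of miR-690 between libraries was 4.43 times the Poisson variance in Ocn and 3.80 times in Prx1, the highest of the 3 regularly detected members in both groups. The exact binomial intervals of Ocn 5 (21.9 to 39.9 CPM) and Ocn 6 (3.24 to 19.2 CPM) did not overlap, nor did those of Prx1 6 (14.6 to 60.7 CPM) and Prx1 9 (0.298 to 8.88 CPM). Both pairs were picked from the high and low ends of their group and are given as a description only.

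**Figure D3:**
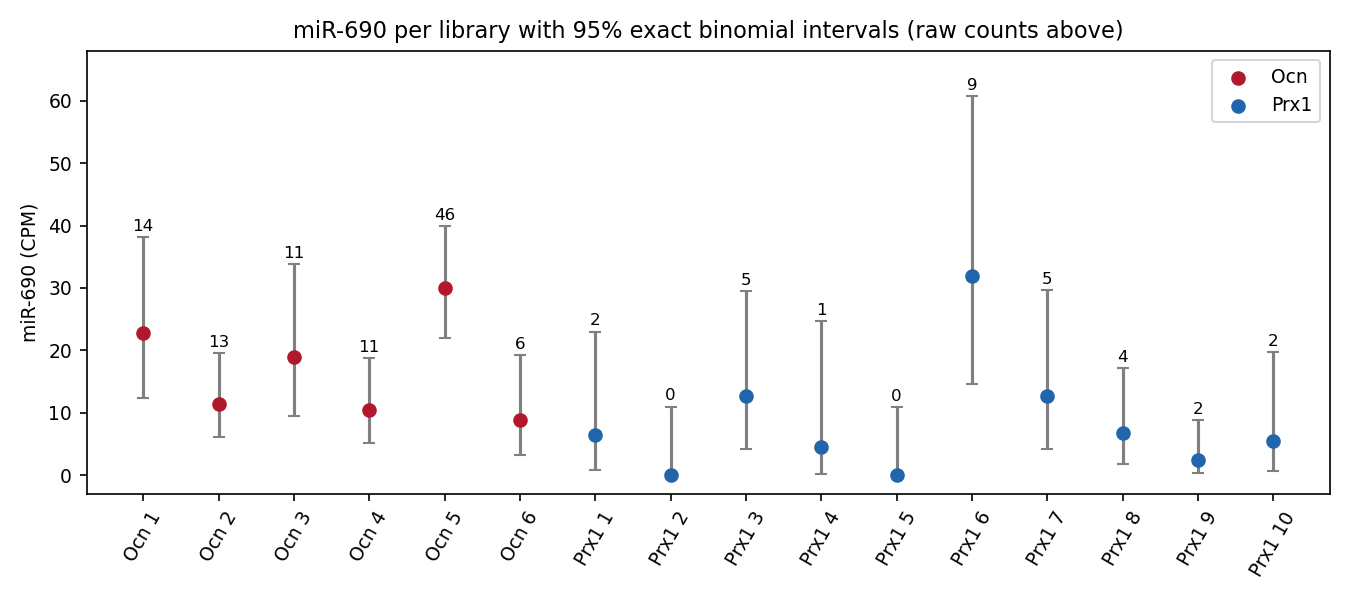
miR-690 in CPM of library total (vertical axis) for each library, with 95% exact binomial intervals that cover counting error only and the raw count above each. Ocn 5 (46 counts) and Prx1 6 (9 counts) stand at 29.9 and 32.0 CPM, and the interval of Prx1 6 is the widest, from 9 counts in a total of 281540.

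**Figure D4:**
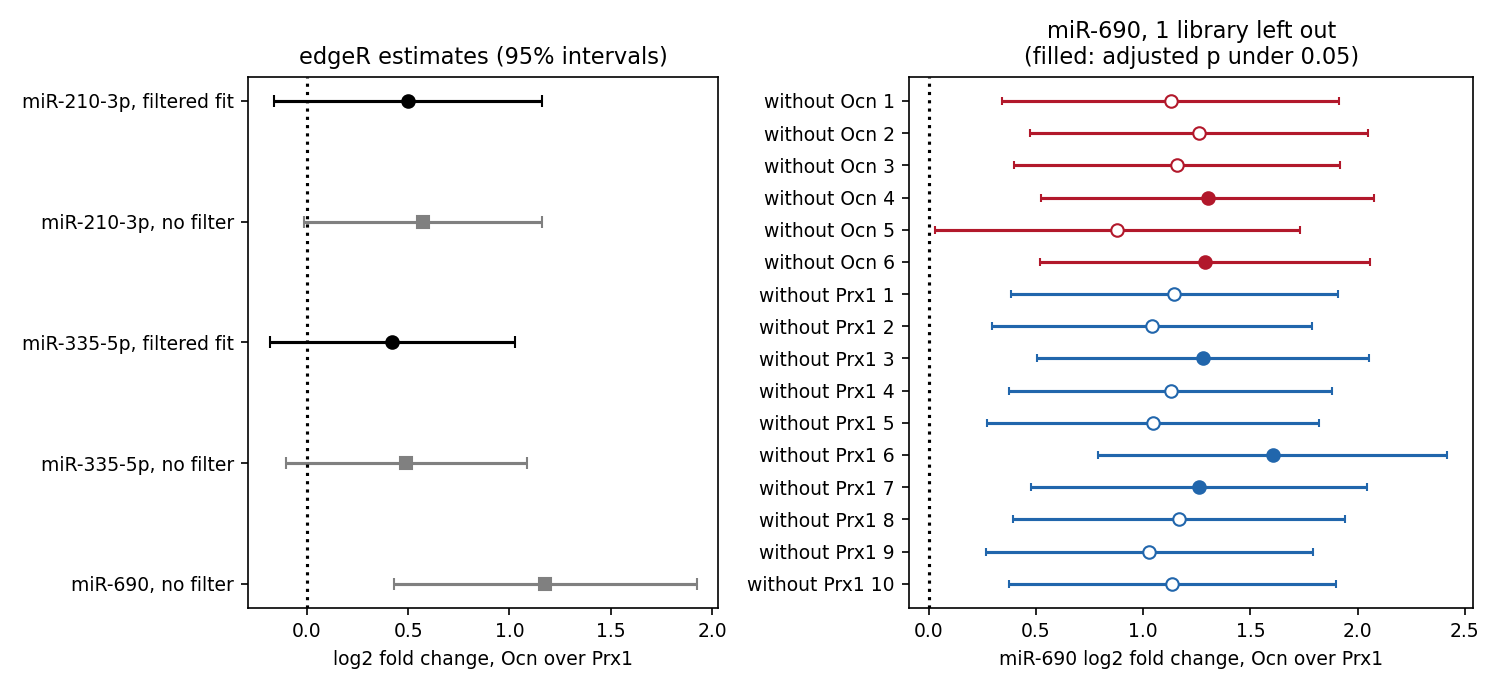
Left, edgeR log2 fold changes of Ocn over Prx1 (horizontal axis) with 95% intervals for the 3 regularly detected members, in the fit with the low-count filter (circles) and without it (squares). Right, the value of miR-690 in the fit without that filter when each library is left out, filled where the adjusted p is under 0.05; it runs from 0.88 without Ocn 5 to 1.60 without Prx1 6.

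Myeloid and erythroid miRNAs are given beside miR-690, as macrophages are a known source of EVs that carry it. In the filtered edgeR fit, with 5.98% of the 234 entries called higher in Ocn and 7.69% lower, 0 of 3 myeloid and pan-leukocyte miRNAs were called, and 2 of 5 erythroid miRNAs were called lower in Ocn, the near-identical copies miR-486a-5p and miR-486b-5p. The remaining erythroid miRNAs went the other way and were not called. Their log2 fold changes were 0.58 for miR-144-3p (edgeR adjusted p = 0.0569), 0.22 for miR-451a and 0.17 for miR-144-5p. Of the other lists, 2 of 4 muscle miRNAs and the 1 lymphocyte miRNA, miR-150-5p, were called lower, 1 of 5 mesenchymal miRNAs, miR-199a-5p, was called higher, and 0 of 2 endothelial miRNAs were called. miR-150-5p averaged 848 ± 228 CPM in Ocn and 1713 ± 558 CPM in Prx1 (SD, n = 6 and 10; log2 fold change -1.05, SE 0.20, edgeR adjusted p = 0.00125). The liver miRNA miR-122-5p was below the filter, at up to 23.5 CPM in Ocn, and at 1644 CPM in Prx1 5 and up to 22.2 CPM in the other 9 Prx1 libraries. In Ocn 5, the summed CPM of the myeloid list was 46767 and that of the erythroid list 26287. In Prx1 6, they were 42090 and 34009. Of the 16 libraries, Ocn 5 and Prx1 6 ranked 10 and 15 for the myeloid list and 15 and 12 for the erythroid list, counted from the highest. Ocn 5 was the highest of all libraries for the 4 muscle miRNAs (77413 CPM) and the 2 endothelial ones (20837 CPM), while Prx1 6 ranked 6 and 13 for these. Most of the muscle sum was miR-1a-3p, not called, with a mean of 48287 ± 9033 CPM in Ocn against 37029 ± 10218 CPM in Prx1 (SD, n = 6 and 10; log2 fold change 0.34, edgeR adjusted p = 0.187). The 2 muscle miRNAs called lower in Ocn were miR-133a-3p (log2 fold change -0.68, edgeR adjusted p = 0.00819) and miR-133b-3p (-0.96, edgeR adjusted p = 0.0101), while miR-206-3p, at -0.29, was not called. For the mesenchymal list Ocn 5 and Prx1 6 ranked 3 and 5, and for miR-150-5p 16 and 6. The marker miRNAs named here were chosen after their values were seen. The part of other cell types in the miR-690 values was not tested.

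The sequence of miR-690 occurs at more places than those of miR-2861, miR-335-5p and miR-210-3p (miR-3960 was not searched), which is shown because it bears on what a count of miR-690 can be. The whole mature sequence, on either strand, was found in transcripts of 20 genes among the 141767 transcripts of GENCODE M21, of which 16 are annotated as miRNA genes (Mir690 among them), 2 as protein-coding genes (Fundc2 and Zfp101), 1 as antisense (BC018473) and 1 as still to be classified experimentally (Gm42826). miR-335-5p and miR-210-3p were each found only in their own hairpin, and miR-2861 in its hairpin and in Cdk9. The commonest 12-base stretch of each is in capitals here.
miR-690: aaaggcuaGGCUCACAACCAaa
miR-2861: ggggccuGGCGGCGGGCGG
miR-335-5p: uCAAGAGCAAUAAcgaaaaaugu
miR-210-3p: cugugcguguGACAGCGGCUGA
That of miR-690 was in 2076 transcripts, or 1.46%, and 16 of the 1623 entries had a commoner stretch. That of miR-2861 was in 390 transcripts, and those of miR-335-5p and miR-210-3p were in 54 transcripts each. The median over the 1623 entries was 115. No 12-base stretch of these 4 members was found on the same strand of another of those entries. Whether reads of other transcripts were counted as miR-690 was not tested, and how reads with several genomic matches were assigned is not given in the sources used here.

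The hairpins of miR-335 and miR-210 yield both a 5p and a 3p arm, and the arms are in capitals below because the ratio of their counts does not depend on how libraries are scaled.
Mir335: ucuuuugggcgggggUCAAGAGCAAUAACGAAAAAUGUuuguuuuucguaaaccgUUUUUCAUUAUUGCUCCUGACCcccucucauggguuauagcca
Mir210: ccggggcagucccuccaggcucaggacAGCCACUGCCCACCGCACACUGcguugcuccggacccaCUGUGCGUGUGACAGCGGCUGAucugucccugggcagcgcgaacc
In each pair the arm reported to act in osteoblasts was the more abundant. miR-335-5p exceeded miR-335-3p in all 6 Ocn and all 10 Prx1 libraries, and miR-210-3p exceeded miR-210-5p in all 16. miR-335-5p made up 130 of the 153 counts of its hairpin in Ocn, or 85.0% (95% exact binomial interval 78.3 to 90.2), and 68 of 85 in Prx1, or 80.0% (69.9 to 87.9). miR-210-3p made up 136 of 141 counts in Ocn, or 96.5% (91.9 to 98.8), and 69 of 77 in Prx1, or 89.6% (80.6 to 95.4). The intervals of these pooled shares cover counting error only, without the spread between libraries.

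The log2 ratio of 5p to 3p, with 0.5 added to each count, averaged 2.32 ± 0.82 in Ocn and 1.64 ± 0.68 in Prx1 for miR-335 (SD, n = 6 and 10), a difference of 0.68 that missed the threshold (exact permutation p = 0.0944, adjusted over the 2 hairpins 0.0944). For miR-210 it averaged -4.10 ± 0.83 in Ocn and -2.65 ± 1.12 in Prx1, a difference of -1.44 (exact permutation p = 0.0184, adjusted over the 2 hairpins 0.0367). This call depends on what is added to the counts. With 1 added the difference was -1.53 (exact permutation p = 0.00237, adjusted over the 2 hairpins 0.00475), and with 0.1 added it was -0.82 (exact permutation p = 0.394, adjusted over the 2 hairpins 0.394). A fixed addition pulls the ratio of a library with few counts toward 0, and the Prx1 libraries had fewer counts. With 0.5 added, the call was lost when any of 8 libraries was left out (Ocn 1, 3 or 5, or Prx1 1, 3, 4, 7 or 10), with adjusted exact permutation p up to 0.0866. miR-210-5p itself had 0 or 1 count in each Ocn library and 0 or 2 counts in each Prx1 library.

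The opposite arms were below the filter. miR-335-3p had 40 counts in all and averaged 4.64 ± 3.31 CPM in Ocn against 4.72 ± 2.84 CPM in Prx1. miR-210-5p had 13 counts in all and averaged 0.929 ± 0.586 CPM in Ocn against 2.19 ± 3.21 CPM in Prx1 (SD, n = 6 and 10). Exact permutation tests on log2(CPM + 1) gave differences of 0.02 for miR-335-3p (p = 0.964, adjusted p = 1) and -0.16 for miR-210-5p (p = 0.794, adjusted p = 1).

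**Figure D5:**
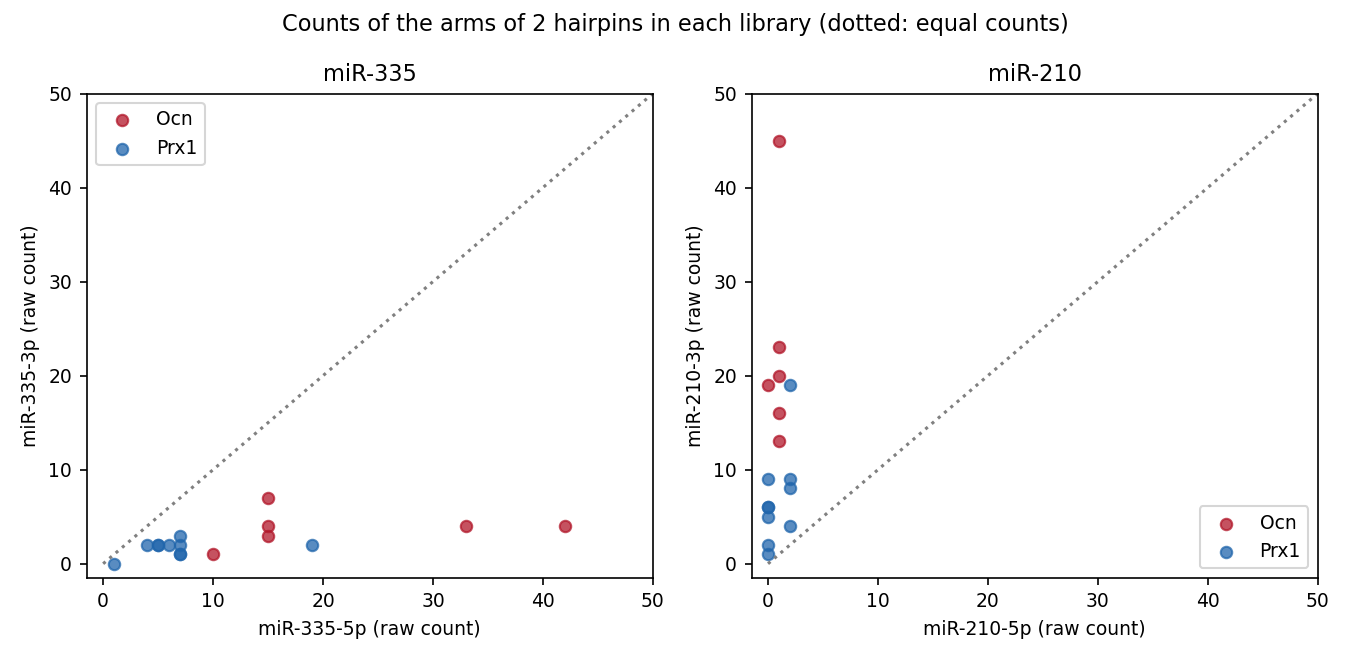
Raw count of the 5p arm (horizontal axis) against that of the 3p arm (vertical axis) for miR-335 and miR-210 in each library, with equal counts on the dotted line; some points coincide. All libraries lie on the 5p side for miR-335 and on the 3p side for miR-210, where the 5p arm never exceeds 2 counts.

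Set against 10 other miRNAs reported to promote osteoblast formation, the members were low. All 10 passed the filter, with means over the libraries from miR-218-5p, the least abundant, at 392 ± 62 CPM in Ocn and 290 ± 30 CPM in Prx1, to miR-26a-5p, the most abundant, at 27824 ± 2057 CPM in Ocn and 23900 ± 775 CPM in Prx1 (SD, n = 6 and 10). miR-181a-5p and miR-218-5p were higher in Ocn, with log2 fold changes of 0.61 (SE 0.11, edgeR adjusted p = 0.00125) and 0.39 (SE 0.12, edgeR adjusted p = 0.0283). miR-29a-3p, which represses collagen and inhibitors of Wnt signalling, was lower, with -0.76 (SE 0.18, edgeR adjusted p = 0.00756). The other 7 did not pass. The calls in this list thus went both ways, 2 higher and 1 lower of 10, beside backgrounds of 5.98% higher and 7.69% lower over the table. The median log2 fold change of the 10 was 0.09, against 0.01 over all 234 tested entries. With the log10 library total as a further term of the fit, 0 of those 234 entries were called, so none of the calls in this list held.

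The tested entries whose profile over the 16 libraries was most like that of miR-335-5p were miR-30a-3p, miR-1839-5p and miR-503-5p, with Spearman rho of log2(CPM + 1) of 0.70, 0.63 and 0.55 (Pearson r of 0.34, 0.72 and 0.68). For miR-210-3p they were miR-338-3p, miR-19b-3p and miR-19a-3p, with rho of 0.79, 0.73 and 0.69 (Pearson r of 0.72, 0.64 and 0.56). After the group means were taken out, rho ran from 0.53 to 0.72 over these 6 pairs. These are the highest values for each member and are given as a description, since the counts of the members are small and the libraries share depth differences with the group. miR-19b-3p was itself called higher in Ocn (log2 fold change 0.65, SE 0.18, edgeR adjusted p = 0.0180). miR-19b-3p averaged 658 ± 197 CPM in Ocn and 406 ± 114 CPM in Prx1 (SD, n = 6 and 10).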

How the data were processed

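Small RNA of bead-captured EVs was sequenced from 6 Ocn and 10 Prx1 libraries, grouped by their titles. The QIAseq miRNA kit and an input of 1 ng RNA were used, per the labels' protocols. Per the submitters' processing notes, cutadapt 1.18 and mm10 were used; no aligner or counter is named there, and whether reads or molecular identifiers were counted is not stated in the sources used here. The deposited table holds raw counts per mature miRNA, which the authors did not normalize, with 225273 to 1536421 counts per library. No replicate pair of 60 was alike within sampling noise (lowest chi-square per degree of freedom 5.04). The design text counts as many mice as there are libraries in each group.

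Here the members were read from a fit of the whole table. edgeR 4.0.16 in R 4.3.3 (TMM, robust quasi-likelihood F test, filterByExpr with a minimum count of 10, group as the only term) tested 234 entries, which held at least 99.7% of each library's counts, with Benjamini-Hochberg adjustment and a threshold of 0.05. A standard error is the fold change divided by the square root of F. Entries below the filter have edgeR values from a fit of all 973 entries with a count, unless another filter is named. Exact 2-sided permutation tests used every split of the 16 libraries on log2(CPM + 1), with CPM per library total (scipy 1.17.1). Poisson variance ratios are chi-square over degrees of freedom within a group, and they depend on the number of counts. Both tests were tried on simulated counts first. Alternatives were DESeq2 1.42.0, limma 3.58.1 voom, other scalings, filters and pseudocounts, library total as a covariate, a replicate block and each library left out.

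Named miRNAs are the members, their opposite arms, called and extreme entries of the list of 10, the 3 most alike profiles for each tested member, and entries sharing a seed; marker miRNAs were named after their values were seen. Members and lists were chosen with earlier results of these data known. Sex is not given per library and did not enter a model.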

Additional observations from a re-analysis of the deposited data

Results flagged for a closer look

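Single libraries stood apart in 3 of 12 sets of values (7 miRNAs, members and opposite arms, in each group, without the 2 sets of miR-2861, in which all were 0), judged by the gap to the nearest library over the range of the group. miR-690 reached 32.0 CPM in Prx1 6, from 9 counts, while the next Prx1 library had 12.7 CPM. miR-3960 stood at 1.72 CPM in Ocn 3, from 1 count, and at 3.35 CPM in Prx1 8, from 2 counts, with 0 counts in every other library of each group; where a single library has counts the gap equals the range, so these 2 say no more than that. The limits used for the gap are meant for normally distributed values. Levels from small counts, some of them 0, need not be so distributed, and no rate by chance is given for the other sets.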

How the results depend on the processing

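The log2 fold changes of miR-335-5p and miR-210-3p kept their sign and missed the threshold in each of 9 other fits (0.17 to 0.55 and 0.24 to 0.73), and with each library left out they ran from 0.27 to 0.55 and from 0.38 to 0.63. Their permutation differences did likewise, at 0.29 to 0.66 and 0.49 to 0.85 with a library left out. For miR-690, 5 other fits gave 1.06 to 1.24 (edgeR adjusted p = 0.0824 to 0.390), leaving out a library gave 0.88 to 1.60, with 5 of 16 past the threshold, and its permutation difference ran from 1.23 to 1.79, never past it. These fits without the low-count filter, other than the unaltered one, were chosen after seeing the data. The fitted value of miR-3960, from 3 counts, changed sign with the setting and is not read as a fold change: it was -0.76 without a filter, 1.25 with the replicate block, and -1.72 to 0.96 with a library left out. Its permutation difference was 0.03, -0.00306 with a pseudocount of 5 CPM, and -0.21 to 0.24 with a library left out. miR-2861, at 0 in all 16 libraries, has no value in any fit. The ratio of the miR-335 arms ran from 0.50 to 0.94 with a library left out, and passed without Ocn 6 or Prx1 9. That of miR-210 ran from -1.63 to -1.21, passed with 1 added (-1.53), and was lost with 0.1 added (-0.82) and with the replicate block (-1.32, exact p = 0.125; the smallest possible is 0.03125). The 32 calls over the table became 0 with the log10 library total in the model (40 entries at an unadjusted p under 0.05 with edgeR) and 22 to 40 with a library left out. Upper quartile scaling, which moved the median log2 fold change to 0.13, split the calls into 26 higher and 11 lower (14 and 18 with TMM). The replicate numbers did not pair the libraries: same-numbered libraries had correlations of 0.02 to 0.20, and 1 of 6 pairs was closer than the best other pair. With the block 28 entries were called, against 26 in the same 12 libraries without it, and no call of a member changed. Depth limits all of this, since most Prx1 libraries had under 10 counts of each member.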
